A study of Mus musculus with 27 samples.

Results

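The genes of fibronectin, the elastic fibre and the matricellular proteins were followed through RNA-seq of mouse embryonic fibroblasts, or MEFs, a primary culture grown out of dissociated embryos. The set holds 10 genes, picked by symbol from the 37310 genes of the count table. It consists of *Fn1*, of the matricellular genes *Sparc*, *Postn*, *Tnc*, *Thbs1* and *Thbs2*, and of the elastic fibre genes *Fbn1*, *Fbn2*, *Eln* and *Lox*. The 12 libraries form 4 groups of 3 replicates, namely female wild-type, female *Firre* KO, male wild-type and male *Firre* KO MEFs. *Firre* is a long noncoding RNA gene on chromosome X, and the KO MEFs (Firre-/- in the labels) lack the whole locus, which was removed by recombination between loxP sites, whereas the wild-type MEFs carry no such deletion. By the study's methods the MEFs came from individual mid-gestation embryos freed of head, limbs and viscera, and were used at passage 4 or earlier. No source says whether the 3 libraries of a group came from separate embryos or cultures, so the p-values measure only the spread between these libraries, which may be technical.

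Fibronectin is a secreted glycoprotein that fibroblasts assemble into the earliest fibrils of their matrix, through integrin receptors. Matricellular proteins are secreted into the same matrix and act mainly as signals and organisers there rather than as its scaffold. Elastic fibres consist of a core of elastin on a scaffold of fibrillin microfibrils, and lysyl oxidase cross-links the elastin and the collagens.

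Depth was 42986516 to 51481034 expected counts per female library and 51521907 to 65454660 per male library, so every male library was deeper than every female library. *Firre* had 90 to 129 counts in the female and 239 to 307 in the male wild-type libraries, and 0 counts in all 6 KO libraries. *Xist* had at least 17445 counts in each female library and at most 4 in each male library. The Y genes *Uty*, *Kdm5d*, *Eif2s3y* and *Ddx3y* stayed at or under 1 count in the female and at or over 1305 in the male libraries, so the labels of genotype and sex hold in all 12. The 10 fibroblast markers summed to between 9766 and 13347 CPM (counts scaled to a common depth with TMM, a correction for library composition), and all were detected in every group. Sex is confounded with the embryos and with depth, and these cannot be told apart.

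All 10 genes passed the filter on low counts, which kept 15387 genes. Together they took 3.07% ± 0.213 of all expected counts in the female libraries (SD, n = 6) and 3.41% ± 0.110 in the male libraries (SD, n = 6). *Thbs1*, which encodes thrombospondin 1, a matricellular glycoprotein that binds CD36 and CD47 and activates latent TGF-β, held the highest count of any gene in each of the 12 libraries, with 1.199% to 1.456% of the counts. *Fn1* ranked between 2 and 6, with 0.666% to 1.10% of the counts. A gene from this set thus led every library whatever its sex or genotype.

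Levels of different genes were compared per length, as approximate TPM, a length-scaled share of all transcripts, with a gene's merged exons as its length. The mean over the 12 libraries was 6267 TPM for *Thbs1*, 2937 for *Fn1*, 2328 for *Sparc*, 1549 for *Tnc* and 1201 for *Lox*. The elastic fibre genes apart from *Lox* lay far lower, at 160.0 TPM for *Fbn1*, 34.1 for *Fbn2* and 18.3 for *Eln*, and *Postn* and *Thbs2* stood at 125 and 104 TPM. The order did not hold in every library, since *Fn1* exceeded *Sparc* in 11 of 12, *Fbn1* exceeded *Postn* in 9, *Postn* exceeded *Thbs2* in 10 and *Fbn2* exceeded *Eln* in 10. The other neighbours kept their order in all 12 libraries. With the longest annotated transcript as the length, *Sparc* (2899 TPM) stood above *Fn1* (2508 TPM) and *Postn* (192 TPM) above *Fbn1* (138 TPM), so these 2 places in the order depend on the length taken.

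**Figure D1:**
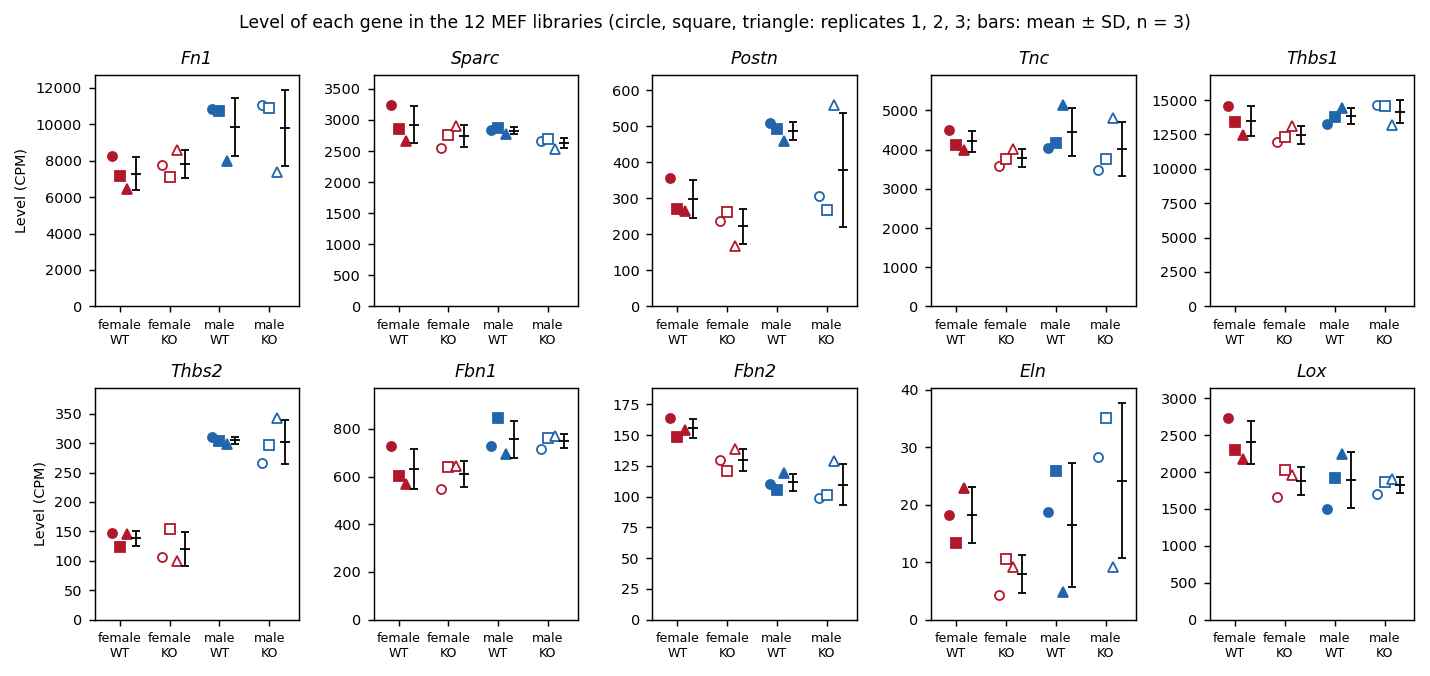
Level of each of the 10 genes in CPM (vertical axis, from 0) in every library, by sex and genotype (filled for wild type, open for KO), with the mean ± SD of each group of 3. *Thbs2* separates the sexes in both genotypes, from 99.5 to 154 CPM in female and from 267 to 343 CPM in male libraries, whereas *Eln* spreads from 4.76 to 25.8 CPM within male wild-type MEFs.

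Positions refer to the mouse build mm9, which the counts used, and the values cover all annotated exons of each gene. *Fn1* is at chr1:71632094-71699774 and *Sparc* at chr11:55208002-55233582, both on the minus strand. *Postn* is at chr3:54165031-54194961 on the plus strand, *Tnc* at chr4:63620819-63681760 on the minus strand, *Thbs1* at chr2:117937612-117952869 on the plus strand and *Thbs2* at chr17:14802507-14831269 on the minus strand. *Fbn1* spans chr2:125126330-125333729 and *Eln* chr5:135179651-135223111, both on the minus strand. The fibrillin genes are the longest, and each has 65 merged exon blocks, against 9 for *Lox* and 10 for *Sparc*. *Thbs1* and *Thbs2* are paralogs, as are *Fbn1* and *Fbn2*, and RSEM splits a read that fits several genes between them. The expected counts of *Thbs1*, *Thbs2* and *Fbn2* were whole numbers in every library, so no such split is visible in them.

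Promoter sequence was taken from RefSeq entries on GRCm38.p6, for 5 of the 10 genes and 7 start sites. The 3 printed here belong to the genes whose levels differed most and least between the sexes among those with an entry. Shown are the 150 bases before the start, 5′ to 3′ on the strand of the gene. Capitals mark TATAAA, the letters of a TATA box, and CAGAC, the core letters of a SMAD site, each searched on both strands. These are *Thbs2* (chr17:14694263-14694412, minus strand), *Postn* (chr3:54360957-54361106, plus strand) and *Sparc* (chr11:55420081-55420230, minus strand).
Thbs2: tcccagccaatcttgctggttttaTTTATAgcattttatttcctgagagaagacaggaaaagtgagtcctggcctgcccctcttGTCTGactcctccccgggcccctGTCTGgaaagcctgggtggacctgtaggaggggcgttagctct
Postn: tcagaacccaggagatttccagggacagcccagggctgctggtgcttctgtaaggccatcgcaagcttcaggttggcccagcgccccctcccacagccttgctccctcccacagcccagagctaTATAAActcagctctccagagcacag
Sparc: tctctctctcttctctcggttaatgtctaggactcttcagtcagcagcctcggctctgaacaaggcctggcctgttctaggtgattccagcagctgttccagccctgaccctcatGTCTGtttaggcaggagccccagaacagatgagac
The printed *Postn* entry has TATAAA from 26 bases before the start. The other *Postn* entry, not printed here, has no TATAAA in its 150 bases. *Thbs2* has TATAAA on the reverse strand from 126 bases before the start, and CAGAC on the reverse strand from 66 and from 43. *Sparc* has no TATAAA in this window and has CAGAC on the reverse strand from 35. In the same window of 32851 promoters, TATAAA occurred in 7.57% and CAGAC in 27.7%, on either strand and at any position. The matches describe the letters only.

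Replicates spread unevenly over the genes. The SD of log2 CPM within groups was 0.09 for *Thbs1* and *Sparc*, below the median of 0.10 over the 12434 genes with a mean of at least 1 CPM. It was 0.35 for *Postn* and 0.92 for *Eln*, which put them at percentile 93.6 and 99.5 of these genes. *Fn1* (SD 0.24, percentile 85.9), *Thbs2* (0.20, percentile 81.6) and *Lox* (0.19, percentile 79.9) also spread more than most. The counts of any pair of replicates gave a chi-square of at least 7.11 per degree of freedom, where sampling noise alone gives about 1, so none counts as a library deposited again.

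The male libraries numbered 3 stood apart in both genotypes. *Eln* was there at 0.213 times the mean of the other 2 libraries in wild-type and 0.287 times in KO MEFs, and *Fn1* at 0.742 and 0.672 times. *Tnc*, which encodes tenascin-C, a large matricellular protein of developing and healing tissue, went the other way at 1.25 and 1.32 times. *Postn* was at 0.915 times in wild-type but 1.95 times in KO MEFs. Several results are also given without 1 or both of them, a choice made after the values were seen.

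**Figure D2:**
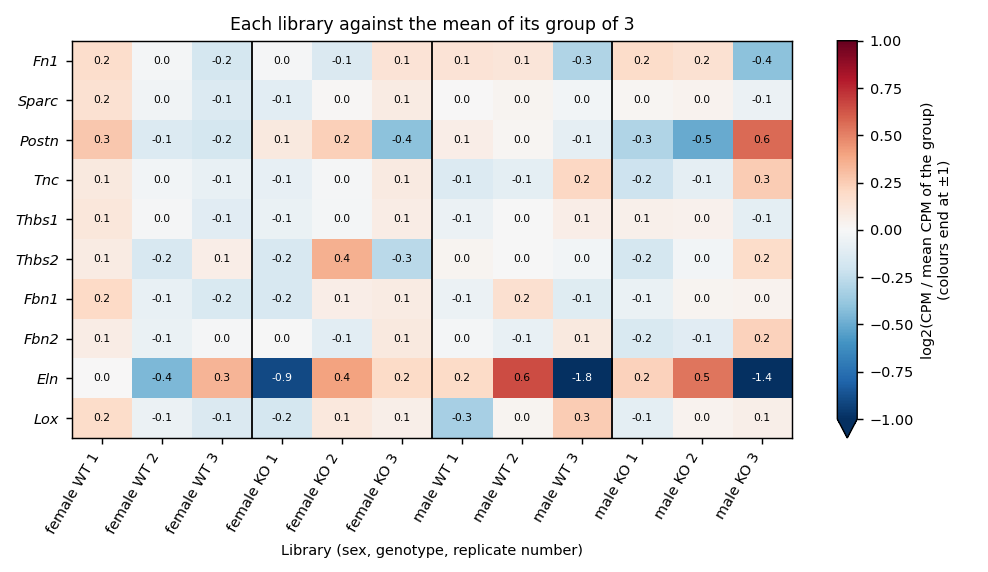
Deviation of each library from the mean of its group of 3, as log2 of the CPM ratio, for the 10 genes (rows of the grid) and the 12 libraries (columns, with black lines between groups). *Eln* is lowest in both male libraries numbered 3, where *Fn1* is also low and *Tnc* high, whereas *Sparc* and *Thbs1* stay within 0.2 of their group means in all 12 libraries.

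The first comparison asks whether loss of *Firre* changed these genes in female MEFs. None of the 10 passed both thresholds, a log2 fold change beyond 1 in either direction and an adjusted p under 0.01 (edgeR quasi-likelihood test, Benjamini-Hochberg adjustment over all genes tested), as against 0.0065% of all genes, and DESeq2 also called 0. Among the 10, 2 had an unadjusted p under 0.05, against 7.55% of all genes. Of the 10, 9 had a lower mean in the KO, against 50.1% of all genes, with a median log2 fold change of -0.18 where the median of all genes was 0.00. In 4 of the 10 all 3 KO libraries lay below all 3 wild-type libraries, against 8.26% of all genes. The share of counts taken by the 10 genes was highest among female libraries in wild-type replicate 1, at 3.46%. Without it the log2 fold changes were -0.01 for *Sparc*, -0.05 for *Thbs1*, -0.10 for *Tnc*, -0.25 for *Lox* and 0.06 for *Fbn1*. Without wild-type replicate 3 those of *Sparc*, *Thbs1* and *Lox* were larger in size, at -0.16, -0.17 and -0.42. Part of the lower means thus rests on single libraries.

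*Lox*, the lysyl oxidase that cross-links elastin and collagen, was at 2731, 2305 and 2170 CPM in female wild-type and at 1668, 2023 and 1963 CPM in female KO MEFs. The groups did not overlap, and the log2 fold change was -0.35 (SE 0.13, 95% interval -0.65 to -0.05), with an unadjusted p of 0.0243 and an adjusted p of 0.594 (edgeR). *Fbn2*, the fibrillin of developing tissue, was at 164, 148 and 154 CPM in the wild type and at 130, 121 and 139 CPM in the KO. All 3 KO libraries were again the lower ones, with a log2 fold change of -0.26 (SE 0.10, 95% interval -0.47 to -0.05), an unadjusted p of 0.0194 and an adjusted p of 0.58 (edgeR). These were the 2 genes with an unadjusted p under 0.05, and neither passed after adjustment over all genes.

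*Eln*, which encodes tropoelastin, the soluble precursor of elastin, showed the log2 fold change of largest size among the 10 genes. It was at 18.2, 13.3 and 23.0 CPM in female wild-type and at 4.28, 10.6 and 9.13 CPM in female KO MEFs. The groups did not overlap, but the log2 fold change of -1.18 had an SE of 0.60 and a 95% interval from -2.50 to 0.14, and the adjusted p was 0.69 (edgeR). *Postn*, which encodes periostin, a matricellular protein of collagen-rich tissue, was at 358, 271 and 264 CPM in the wild type and at 238, 261 and 167 CPM in the KO, also without overlap. Its log2 fold change was -0.42 (SE 0.25, adjusted p = 0.728, edgeR), and lay between -0.555 and -0.25 with each library left out.

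The remaining 6 genes overlapped between female wild-type and KO MEFs. Their log2 fold changes ran from -0.20 for *Thbs2* to 0.10 for *Fn1*. Single libraries moved both ends, *Thbs2* to -0.42 without KO replicate 2 and -0.09 without KO replicate 3, and *Fn1* to 0.02 without wild-type replicate 3 and 0.20 without wild-type replicate 1. The 95% intervals of *Thbs1* (-0.26 to 0.03), *Sparc* (-0.24 to 0.06) and *Fbn1* (-0.27 to 0.17) were the narrowest among these 6, so a change past 1 on the log2 scale lies outside them. *Fbn1* turned to 0.06 without wild-type replicate 1 and to 0.02 without KO replicate 1.

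In male MEFs none of the 10 genes passed the thresholds either, against 0.0065% of all genes, and DESeq2 called 0 of them. None had an unadjusted p under 0.05, against 2.06% of all genes, and all adjusted p were 1 (edgeR). Of the 10, 8 had a lower mean in the KO, against 52.3% of all genes, and their median log2 fold change was -0.02. In 1 gene, *Sparc*, the KO libraries all lay below the wild-type libraries, against 2.52% of all genes.

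*Sparc*, also called osteonectin, encodes a collagen-binding matricellular protein. It was at 2836, 2875 and 2768 CPM in male wild-type and at 2666, 2693 and 2530 CPM in male KO MEFs. The groups did not overlap, at a log2 fold change of -0.10 (SE 0.07, 95% interval -0.25 to 0.05). *Fn1* was at 10843, 10731 and 8004 CPM in male wild-type and at 11069, 10876 and 7372 CPM in male KO MEFs, and the low value of each group was replicate 3. Its log2 fold change was -0.01 (SE 0.16), and 0.02 without both libraries numbered 3.

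*Eln* was at 18.8, 25.8 and 4.76 CPM in male wild-type and at 28.3, 35.1 and 9.09 CPM in male KO MEFs, so its groups overlapped. Male libraries of the same number were also compared as pairs, though no source says that they were made together. In these pairs *Eln* was higher in the KO in 3 of 3, whereas *Sparc* and *Tnc* were lower in 3 of 3. The log2 fold change was 0.55 (SE 0.57, 95% interval -0.70 to 1.81), opposite in sign to that in female MEFs, and 0.63 with the replicate number as a block within each sex (adjusted p = 1, edgeR). It was 0.12 without male wild-type replicate 3, 1.03 without male wild-type replicate 2 and 0.50 without both male libraries numbered 3, so its size rests on single libraries. *Postn* was at 509, 494 and 459 CPM in the wild type and at 308, 267 and 560 CPM in the KO. Replicates 1 and 2 of the KO lay below the wild type and replicate 3 above it, with a log2 fold change of -0.37 (SE 0.25), which became -0.81 without both libraries numbered 3 (adjusted p = 0.701, edgeR) and lay between -0.76 and -0.17 with each library left out. Same-numbered male libraries deviated together, and with the number as a block within each sex 0 genes were called in this comparison, *Firre* included.

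**Figure D3:**
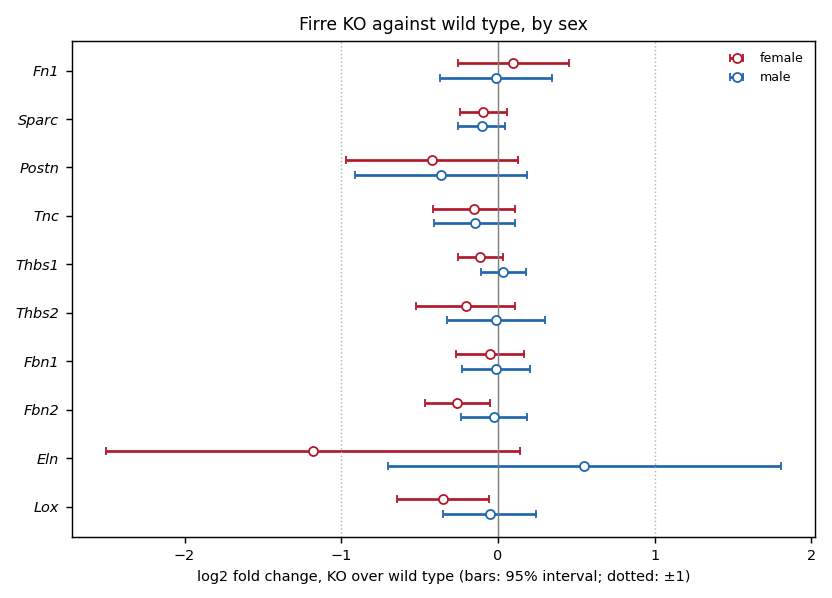
Log2 fold change of each of the 10 genes, KO over wild type (horizontal axis), in female and male MEFs, with 95% intervals from the edgeR fit; open circles mark genes that did not pass the thresholds. All 20 values are open, and *Eln* has the widest intervals, from -2.50 to 0.14 in female and from -0.70 to 1.81 in male MEFs.

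Averaged over the sexes, the KO called 0 of the 10 genes, against 0.0065% of all genes. *Postn* was the 1 gene of the 10 with an unadjusted p under 0.05, against 960 of the 15387 genes tested. Its log2 fold change was -0.39 (SE 0.18, unadjusted p = 0.0476, adjusted p = 0.795, edgeR). The value was -0.59 without male KO replicate 3 (adjusted p = 0.213, edgeR) and -0.62 without both male libraries numbered 3 (adjusted p = 0.235, edgeR). It was -0.29 without male KO replicate 2 (adjusted p = 1, edgeR), -0.31 without female KO replicate 3 (0.872) and -0.32 without female wild-type replicate 1 (0.998). An interaction term tested whether the KO acted differently in the sexes, which called 0 of the 10 genes and 0% of all genes, and DESeq2 called 0 of the 10 in both contrasts. No gene of the set had an unadjusted p under 0.05 in the interaction, against 491 of the 15387 genes tested. *Eln* came nearest with a log2 difference, female minus male, of -1.74 (SE 0.83, unadjusted p = 0.0599, adjusted p = 1, edgeR). With the block within each sex this difference was -1.85 (adjusted p = 0.783, edgeR), so the test did not show that the KO acted differently on *Eln* in the sexes. *Eln* was nonetheless higher in the KO in all 3 same-numbered male pairs, and all 3 female KO libraries lay below the female wild type.

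Other genes of the same pathways were examined as 3 lists. These were 22 genes of elastic fibre assembly (fibulins, microfibril-associated proteins, latent TGF-β binding proteins, further lysyl oxidases and processing enzymes), 19 other matricellular genes, of which 18 passed the filter, and 15 receptors of fibronectin and the matricellular proteins. None was called by edgeR or by DESeq2 in female or in male KO MEFs. At an unadjusted p under 0.05, edgeR gave 1 higher and 3 lower genes of elastic fibre assembly, 2 lower matricellular genes and 1 higher receptor in female KO MEFs, and 1 lower gene of elastic fibre assembly in male KO MEFs. Over all genes the share was 7.55% in female and 2.06% in male KO MEFs. Averaged over the sexes, 5 genes of elastic fibre assembly, 2 matricellular genes and 1 receptor were lower and 1 matricellular gene higher. Over all genes 960 of 15387 had such a p there. In the interaction 2 genes of elastic fibre assembly and 1 receptor were higher and 1 matricellular gene lower, against 491 of 15387 genes. Neither tool called a gene of the lists in these 2 contrasts. The median log2 fold changes in female KO MEFs were 0.04, -0.07 and -0.08 in this order, and in male KO MEFs -0.08, 0.14 and -0.05.

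The sexes differed in 1 gene of the set past both thresholds. *Thbs2*, which encodes thrombospondin 2, an inhibitor of angiogenesis that limits matrix metalloproteinase activity, was at 147, 124 and 145 CPM in the female and at 311, 304 and 299 CPM in the male wild-type libraries. In the KO it was at 107, 154 and 99.5 CPM (female) and at 267, 297 and 343 CPM (male). Every female library lay below every male library.

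The level of *Thbs2* was 2.20-fold lower in female than in male wild-type MEFs (log2 fold change -1.14, SE 0.14, adjusted p = 0.000206, edgeR) and 2.51-fold lower in female than in male KO MEFs (log2 fold change -1.33, SE 0.15, adjusted p = 8.32e-05, edgeR). It passed the thresholds in each of the 12 fits that left out 1 library, with log2 fold changes from -1.18 to -1.07 in wild-type and from -1.55 to -1.21 in KO MEFs. The 1 call among 10 genes stands against 4.54% of all genes in the wild type and 3.89% in the KO, or 1.55% and 1.58% called lower in female MEFs. Its change with the KO passed the test in neither sex, with 95% intervals of the log2 fold change from -0.52 to 0.11 in female and -0.33 to 0.30 in male MEFs.

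At an adjusted p under 0.05 without a fold limit, 3 of the 10 genes differed between the sexes in the wild type and 4 in the KO (edgeR), against 38.7% of all genes in the wild type and 38.7% in the KO. Besides *Thbs2* these were *Fbn2* and *Postn* in the wild type, and *Postn*, *Thbs1* and *Fbn1* in the KO. The libraries of the sexes did not overlap in 3 of the 10 genes in the wild type, against 51.9% of all genes, and in 4 in the KO, against 50.2%. These counts are near or below the shares of all genes and are no result about the set as a whole. The genes past 0.05 also depend on the fit. With the replicate number as a block within each sex they were 5 in the wild type (*Fn1*, *Postn*, *Thbs2*, *Fbn2* and *Lox*) and 5 in the KO (*Fn1*, *Postn*, *Thbs2*, *Fbn2* and *Eln*), where *Thbs1* (adjusted p = 0.0913, edgeR) and *Fbn1* (0.0668) were lost. With 1 block for all libraries of a number *Postn* was lost in the wild type (adjusted p = 0.0633, edgeR) and in the KO (0.0571), where *Thbs1* (0.0651) and *Fbn1* (0.051) were lost too, while *Fn1* passed in the wild type and *Fbn2* in the KO. *Thbs2* passed in both genotypes and *Fbn2* in the wild type under either block. The share of all genes past 0.05 in the blocked fits is not given here, so these counts are no result about the set.

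*Fbn2* was the gene that differed in the other direction. Its level in wild-type MEFs was 164, 148 and 154 CPM in female and 110, 106 and 119 CPM in male libraries, without overlap. It was 1.39-fold higher in female MEFs (log2 fold change 0.48, SE 0.10, adjusted p = 0.00281, edgeR), and its adjusted p stayed between 0.000248 and 0.0132 with each library left out. In KO MEFs it was at 130, 121 and 139 CPM in female and at 98.7, 102 and 129 CPM in male libraries, which overlapped, with a log2 fold change of 0.24 and an adjusted p of 0.0658 (edgeR). Without male KO replicate 3 this value was 0.37 (adjusted p = 0.00233, edgeR), and with the replicate number as a block within each sex 0.25 (adjusted p = 0.0131, edgeR). It was 0.17 without male KO replicate 1, and 1 of the 12 fits that left out a library gave an adjusted p under 0.05, the highest being 0.221 (edgeR).

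*Postn* was lower in female than in male MEFs, with a log2 fold change of -0.71 in the wild type (SE 0.25, adjusted p = 0.0428, edgeR) and -0.77 in the KO (SE 0.25, adjusted p = 0.032, edgeR). Neither call held with single libraries left out. In the wild type it was lost without female wild-type replicate 2 (adjusted p = 0.124, edgeR), female wild-type replicate 3 (0.131), female KO replicate 1 (0.0555) or male wild-type replicate 1 (0.102), 2 (0.0862) or 3 (0.0606). In the KO it was lost without female KO replicate 1 (adjusted p = 0.0619, edgeR) or 3 (0.114), and without male KO replicate 3, where the log2 fold change shrank to -0.37 (0.119). The wild-type call was also lost with library size alone (adjusted p = 0.0524, edgeR) and the KO call in the fit of only the libraries compared (0.0865).

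*Fbn1*, the main fibrillin of microfibrils, was at 728, 601 and 570 CPM in the female and 727, 845 and 696 CPM in the male wild-type libraries, which overlapped. In the KO its female libraries (548, 640 and 645 CPM) all lay below its male libraries (716, 763 and 769 CPM). The log2 fold change was -0.26 in the wild type (adjusted p = 0.0632, edgeR) and -0.29 in the KO (adjusted p = 0.037, edgeR). The wild-type value passed 0.05 without female wild-type replicate 1 (-0.37, adjusted p = 0.0134, edgeR), male wild-type replicate 3 (0.043) or both male libraries numbered 3 (0.0407), but it was -0.17 without male wild-type replicate 2, and the adjusted p reached 0.223 with single libraries left out (edgeR). The KO call was lost without female KO replicate 1 (adjusted p = 0.137, edgeR) or 2 (0.0527), and without male KO replicate 1 (0.0528), 2 (0.0906), 3 (0.0803) or both male libraries numbered 3 (0.0646).

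*Thbs1* had the smallest difference called, with a log2 fold change of -0.18 in KO MEFs (SE 0.06, adjusted p = 0.0432, edgeR), where it was at 11926, 12319 and 13147 CPM in female and at 14660, 14604 and 13210 CPM in male libraries. The highest female library lay just under the lowest male library. The call was lost without female KO replicate 1 (adjusted p = 0.143, edgeR) or 2 (0.106), male KO replicate 1 (0.128) or 2 (0.122), female wild-type replicate 2 (0.0582) or male wild-type replicate 2 (0.0533), and with DESeq2 (0.0548). In wild-type MEFs the difference was -0.04 (95% interval -0.18 to 0.11).

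*Fn1* was at 8244, 7179 and 6457 CPM in female wild-type and at 7757, 7081 and 8593 CPM in female KO MEFs, below male replicates 1 and 2 of each genotype. The log2 fold change between the sexes was -0.43 (SE 0.16, adjusted p = 0.0542, edgeR) in the wild type and -0.32 (SE 0.16, adjusted p = 0.138, edgeR) in the KO. Without both male libraries numbered 3 these values were -0.57 (adjusted p = 0.00127, edgeR) and -0.49 (adjusted p = 0.0028, edgeR). The wild-type value also passed 0.05 without female wild-type replicate 1 (adjusted p = 0.0478, edgeR), and with all libraries kept when no filter on low counts was used (0.0459) or when only the libraries compared were fitted (0.0434). With each library left out, 3 of 12 fits gave an adjusted p under 0.05 in the wild type and 1 of 12 in the KO (edgeR). The weakest values were -0.35 in the wild type, without female replicate 3, and -0.23 in the KO, without male KO replicate 1, with adjusted p up to 0.172 and 0.363 (edgeR).

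*Eln* behaved in a similar way in KO MEFs, with a log2 fold change between the sexes of -1.59 (SE 0.60, adjusted p = 0.0551, edgeR). Without both male libraries numbered 3 it was -1.98 (adjusted p = 0.000974, edgeR), and with the replicate number as a block within each sex -1.41 (adjusted p = 0.00652, edgeR), past both thresholds in each case. It also passed 0.05 with DESeq2 (adjusted p = 0.0333), with no filter on low counts (0.0468), and without male wild-type replicate 2 (0.0494) or 3 (0.019), whereas it was -1.23 without male KO replicate 2, and with each library left out the adjusted p was at most 0.172 (edgeR). With 1 block for all libraries of a number it did not pass 0.05, at -1.47 (adjusted p = 0.0782, edgeR). In wild-type MEFs the value was 0.14 (95% interval -1.124 to 1.405), and -0.29 without both libraries numbered 3. For *Lox* the log2 fold change was 0.35 in wild-type MEFs (adjusted p = 0.0624, edgeR) and 0.05 in KO MEFs (adjusted p = 0.796, edgeR). The wild-type value passed 0.05 without male wild-type replicate 3 (0.49, adjusted p = 0.0132, edgeR), without both male libraries numbered 3 (0.49, adjusted p = 0.0119), with library size alone (adjusted p = 0.0471) and with the block within each sex (adjusted p = 0.044). It fell to 0.20 without male wild-type replicate 1, and the adjusted p ranged from 0.0132 to 0.22 with each library left out (edgeR). *Sparc* and *Tnc* gave values between -0.08 and 0.06 in both genotypes.

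**Figure D4:**
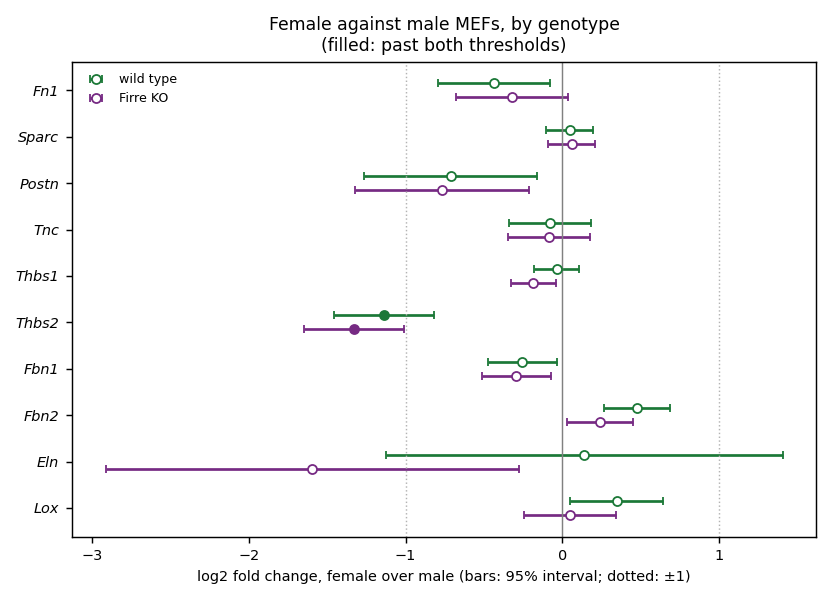
Log2 fold change of each of the 10 genes, female over male (horizontal axis), in wild-type and *Firre* KO MEFs, with 95% intervals from the edgeR fit; filled circles passed both thresholds. Only *Thbs2* is filled, at -1.14 and -1.33, and *Fbn2* (0.48 in the wild type) has an interval above 0 in both genotypes.

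The ratios between paralogs are given as a description, since they rest on the *Thbs2* and *Fbn2* values above and were formed after these were seen. Per length, *Thbs1* exceeded *Thbs2* 78.3-fold to 129-fold in the 6 female libraries and 37.6-fold to 53.6-fold in the 6 male libraries, with medians of 101 and 45.8. *Fbn1* exceeded *Fbn2* 3.19-fold to 4.57-fold in female and 5.04-fold to 6.90-fold in male libraries. The libraries of the sexes did not overlap in either ratio. Female minus male, the mean log2 ratio differed by 1.10 in wild-type and 1.17 in KO MEFs for the thrombospondins, and by -0.74 and -0.55 for the fibrillins.

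Among the 22 genes of elastic fibre assembly, 5 were lower and 0 higher in female than in male wild-type MEFs past both thresholds (edgeR), and 2 were lower and 0 higher in KO MEFs. Over all genes 1.55% were called lower in the wild type and 1.58% in the KO. *Loxl3*, a further lysyl oxidase, was at 77.9 ± 5.33 CPM in the female and 314 ± 12.8 CPM in the male wild type (SD, n = 3 each). Its log2 fold change was -2.01 (SE 0.13, adjusted p = 4.65e-06, edgeR), and -1.71 in the KO (SE 0.13, adjusted p = 1.19e-05, edgeR). *Ltbp2*, a latent TGF-β binding protein of microfibrils, had values of -1.34 in the wild type and -1.38 in the KO. *Ltbp3*, of the same family, *Emilin1*, a glycoprotein at the surface of elastin, and *Fbln2*, a fibulin that binds fibrillin and fibronectin, passed in the wild type as well, with -1.14, -1.13 and -1.08, the last named after its value was seen. In the KO they had the same sign, with -0.90 (adjusted p = 0.000188, edgeR), -0.89 (0.0105) and -0.65 (0.000624). The difference between the genotypes had an adjusted p of 1 for each (edgeR). Its unadjusted p was 0.156, 0.482 and 0.00963 (edgeR), and for *Fbln2* the difference was 0.44 on the log2 scale (SE 0.14). The median of the list was -0.50 in the wild type and -0.22 in the KO, where the median of all genes was -0.01 and 0.00. Whether the list differed between the genotypes was not tested.

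**Figure D5:**
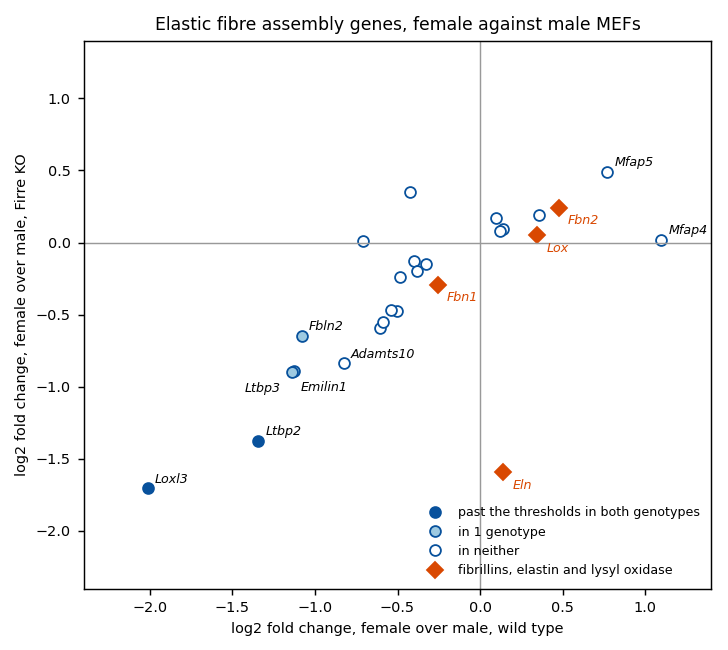
Log2 fold change, female over male, in wild-type (horizontal axis) and KO MEFs (vertical axis) for the 22 genes of elastic fibre assembly (circles) and for *Fbn1*, *Fbn2*, *Eln* and *Lox* (diamonds). *Loxl3* and *Ltbp2* passed the thresholds in both genotypes, *Ltbp3*, *Emilin1* and *Fbln2* in the wild type, and *Eln* stands off the diagonal at 0.14 and -1.59.

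Of the 18 other matricellular genes tested, 1 was higher and 3 were lower in female wild-type MEFs, and 0 were higher and 4 lower in female KO MEFs (edgeR), where 4.54% and 3.89% of all genes were called in either direction. *Spp1*, which encodes osteopontin, was at 96.4 ± 11.5 CPM in the female and 397 ± 16.6 CPM in the male wild type (SD, n = 3 each), with a log2 fold change of -2.04 there and -1.94 in the KO. *Smoc1*, of the *Sparc* family, gave -2.39 and -2.27, and *Wisp2*, a CCN protein, -4.03 and -3.69, with group means of at most 29.2 CPM. *Smoc2* gave -1.02 in the KO, and *Thbs4* was higher by 4.25 on the log2 scale in the wild type at a level of 3.78 ± 1.57 CPM in female and 0.201 ± 0.140 CPM in male libraries (SD, n = 3 each). The medians of this list were -0.16 and -0.07. Of the 15 receptors, *Cd36*, a receptor for thrombospondins that macrophages and endothelium also express, was higher, with log2 fold changes of 2.22 in the wild type and 2.59 in the KO, none was lower past the thresholds, and the medians were -0.43 and -0.36.

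Markers of other cell types moved with sex as well. The 10 macrophage markers, all detected, summed to between 37.2 and 115 CPM in female and between 8.63 and 15.9 CPM in male libraries, and 8 of the 10 were called higher in female MEFs in each genotype (edgeR). These calls and those of the lists below stand against 4.54% of all genes called in the wild type and 3.89% in the KO. The 8 epithelial markers summed to between 77.1 and 136 CPM in female and 41.7 and 54.4 CPM in male libraries, with 5 called higher in the wild type and 1 in the KO. The 8 endothelial markers, of which 6 were tested, summed to between 25.8 and 37.5 CPM in female and 17.4 and 23.9 CPM in male libraries, where 1 marker was at 0 in each male group, and 1 was called higher in the wild type. Of the other lists, 3 of 8 skeletal muscle markers were called higher in female MEFs in each genotype, 2 and 3 of 7 neural and Schwann markers, 1 and 0 of 7 smooth muscle markers and 0 of 7 cartilage markers (edgeR). Of the cartilage markers, 1 higher and 1 lower had an unadjusted p under 0.05 in the wild type (edgeR) and DESeq2 called 1 there. Of the 10 fibroblast markers, 2 were called in the wild type, *Lum* higher and *S100a4* lower, both named after their values were seen, and 0 in the KO. No such marker list held a gene called between wild-type and KO MEFs within a sex by edgeR or DESeq2. In the interaction, DESeq2 called 1 of the 10 fibroblast markers and edgeR 0. At an unadjusted p under 0.05 (edgeR) 2 fibroblast markers were higher and 1 lower in the female KO and 3 of the 8 epithelial markers were lower there, against 7.55% of all genes in either direction. In the male KO 1 endothelial marker was lower, against 2.06% of all genes. The other lists held no such gene. The part of the epithelial markers in the lower values of the female KO was not tested. In such bulk samples fewer cells of a type and less RNA per cell cannot be told apart, and the part of these other cells in the values of *Thbs2*, *Fbn2* or *Postn* was not tested.

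For each of the 10 genes, the gene with the most similar profile over the 12 libraries was sought among 12424 genes, by the root mean square (RMS) difference of log2 CPM centred on each gene's mean. *Thbs1* lay nearest to *Heatr5b* (RMS 0.04), *Sparc* to *Fyn* (0.05), *Fbn1* to *Fstl1* (0.05), *Fn1* to *Heatr7a* (0.07), *Tnc* to *Zdhhc21* (0.07) and *Fbn2* to *Ccnyl1* (0.08). *Lox* lay nearest to *Ehd3* (0.10), *Thbs2* to *Ccnl2* (0.14) and *Postn* to *Apol9a* (0.24). *Eln* had no close match, since its nearest gene, *Cacna1h*, still differed by 0.52. The other genes of the set were not among the candidates.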

How the data were processed

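RNA-seq of 12 MEF libraries was used. The authors aligned with Bowtie 2 and ran RSEM 1.2.29, and the deposited values are its unscaled expected counts per gene. In each library 14.7% to 16.8% of them are not whole numbers. Use of strand in counting is not given in the sources used here. After rounding, edgeR 4.0.16 under R 4.3.3 fitted quasi-likelihood models with TMM, filterByExpr, 1 mean per sex and genotype, and Benjamini-Hochberg adjustment over 15387 genes. The thresholds were those of the paper. Levels per length (TPM) used merged exon lengths of the mm9 annotation. Depth was at least 42986516 counts per library, and replicates differed by more than counting noise, so the spread between libraries sets the precision.

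The 10 genes, lists and tests were chosen with earlier results of these data known. The genes named are these 10, checks of the labels, the nearest profile of each, and of each pathway list up to 4 called genes with the largest change in a contrast. *Fbln2*, *Lum* and *S100a4* fall outside this rule and were named after their values were seen. The procedure was tested on simulated counts. Same-numbered male libraries correlated in their deviations from group means (0.236, 0.381 and 0.479 over 12434 genes). Female libraries did not (-0.245, -0.109 and -0.128). No source says that same-numbered libraries were made together. Both male libraries numbered 3 stood apart, which alone can raise these correlations, so they do not settle whether the numbers pair the male samples. Alternatives were DESeq2 1.42.0, other scalings, filters, lengths and thresholds, fits of only the libraries compared, replicate blocks, and each library left out. Promoters came from RefSeq on GRCm38.p6. The Hi-C and ChIP-seq samples were not used here.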

Additional observations from a re-analysis of the deposited data

How the results depend on the processing

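Groups of 3 libraries limit every comparison, and depth differed between the sexes. No alternative called a gene of the set between wild-type and KO MEFs, and *Thbs2* was called between the sexes under each alternative run. The scalings moved the median of all genes by less than 0.1 on the log2 scale.

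Between wild-type and KO MEFs, *Firre* was the gene called in the whole table. DESeq2 called 0 genes in female MEFs, 4 in male MEFs, 4 averaged over the sexes and 2 in the interaction. At least 10 counts in every library, a filter that removes *Firre*, left 0 in each of female MEFs, male MEFs and their average. Fits of only the libraries compared called 0 in female and 0 in male MEFs, and 370 between the sexes in the KO, against 599. An adjusted p under 0.05 without a fold limit gave 2 in female MEFs, 3 on average, 5953 between the sexes in the wild type (3 of the 10 genes) and 5949 in the KO (4 of the 10). With the replicate block, 0 genes were called in female and 0 in male MEFs. With the block within each sex, added after the data were seen, 0 were called in female MEFs, in male MEFs and on average, and 2 of the 10 genes between the sexes in the KO, *Eln* being the added one. Without both male libraries numbered 3 that count was also 2, and log2 fold changes turned to 0.0210 (*Fn1*) and 0.0549 (*Lox*) for the male KO, to 0.0361 (*Tnc*) and -0.29 (*Eln*) between the sexes in the wild type and to 0.0627 (*Tnc*) in the KO. The cause of these changes was not tested.

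With each library left out, the genes called between the sexes numbered 432 to 763 in the wild type (698 with all libraries; lowest without male wild-type replicate 1) and 329 to 621 in the KO (329 without male KO replicate 1, 342 without male KO replicate 2 and 376 without female KO replicate 1). Log2 fold changes that crossed 0 ranged from -0.12 to 0.0614 for *Fbn1* in the female KO. In the male KO they ranged from -0.14 to 0.15 for *Fn1*, -0.11 to 0.0693 for *Thbs2*, -0.0692 to 0.0750 for *Fbn1*, -0.16 to 0.0470 for *Fbn2* and -0.20 to 0.0901 for *Lox*. Between the sexes they ranged from -0.0347 to 0.11 for *Sparc*, -0.15 to 0.0355 for *Tnc*, -0.0997 to 0.0171 for *Thbs1* and -0.30 to 0.62 for *Eln* in the wild type, and from -0.18 to 0.0627 for *Tnc* and -0.00544 to 0.13 for *Lox* in the KO.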
